A study of Mus musculus with 14 samples.

Results

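The MAPK phosphatases and the Sprouty and Spred proteins are negative regulators of receptor and MAPK signaling, and 10 of their genes were followed across the livers of mice with concanavalin A (ConA) hepatitis. The genes are Dusp1, Dusp4, Dusp5, Dusp6, Dusp8, Dusp10, Dusp16, Spry2, Spry4 and Spred1. They were listed by name with earlier results of these data known, and all 10 were found among the 17656 genes of the expression tables. Liver RNA of 14 mice was sequenced, 1 library per mouse, and the design asks how the liver response to ConA differs when the m6A reader YTHDF1 is lost. WT saline mice (n = 3) and WT ConA mice (n = 4) were wild type, whereas KO saline mice (n = 3) and KO ConA mice (n = 4) were labelled Ythdf1-/-. ConA, a plant lectin that activates T cells and causes acute hepatitis in mice, was injected intravenously at 8 mg/kg, control mice were given saline, and all livers were taken after 8 h from C57BL/6 mice aged 8 weeks. The Ythdf1-/- animals carry the deletion in the whole body, so the design does not separate hepatocytes from liver macrophages or blood cells. The deletion was made in the third exon, and the Ythdf1 level summed over the whole gene, between 18.4 and 20.8 TPM in KO saline and between 12.03 and 13.9 TPM in WT saline, does not check the genotype label.

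MAP kinases are switched on by phosphorylation of a threonine and a tyrosine, and the dual-specificity phosphatases encoded by the Dusp genes remove both phosphates. Dusp1, Dusp4 and Dusp5 encode inducible nuclear enzymes, the product of Dusp6 acts on ERK in the cytoplasm, and the products of Dusp8, Dusp10 and Dusp16 act mainly on JNK and p38. Sprouty and Spred proteins act further upstream and restrain the Ras and Raf steps of receptor tyrosine kinase signaling. Many of these genes are themselves induced by the kinases they restrain, and Dusp1 and Dusp10 are known for limiting cytokine production in innate immune cells.

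Levels are given as TPM, the transcripts of a gene per 1000000 transcripts of a library after correction for length. Differences are log2 fold changes on the log2(TPM + 1) scale, which understates the change of genes with low TPM, each with its standard error (SE). Genes that reached a TPM of 1 in enough libraries to fill the smaller group were tested with limma, and those with an adjusted p (Benjamini-Hochberg) under 0.05 were called. The depth of the libraries is unknown, since TPM hold no read number, and the spread between mice is the only error available. WT saline replicates 2 and 3 were almost the same: the median absolute log2 ratio between them was 0.078 over 10643 genes, and the 17 remaining pairs of mice of the same group had 0.127 to 0.404. The counts and calls against WT saline are therefore also described with their average counted as 1 mouse. WT ConA replicate 3 and KO ConA replicate 3 lay low over most genes, with median log2 ratios to the geometric mean of -0.29 and -0.24, where the other 12 libraries had -0.08 to 0.21.

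The promoters of 3 members carried a match to the elements searched, and these stretches are shown because the genes include the strongest ConA response (Dusp8), the only difference called between the genotypes after ConA (Dusp5) and the most abundant transcript of the set in WT saline (Dusp1). They run from base 200 to base 51 before the RefSeq start (build GRCm38.p6), 5′ to 3′ on the strand of the gene, and capitals mark the matches. They lie at chr17:26508523-26508672 (minus strand) for Dusp1, at chr19:53528945-53529094 (plus strand) for Dusp5 and at chr7:142095335-142095484 (minus strand) for Dusp8. The annotated Dusp8 gene extends upstream of the last of these stretches. In the same build the genes lie at chr17:26505591-26508472 (Dusp1), chr19:53529145-53541809 (Dusp5), chr10:99263231-99267489 (Dusp6), chr7:142079487-142095907 (Dusp8), chr1:184034381-184075636 (Dusp10), chr6:134715468-134807063 (Dusp16), chr14:105891947-105896819 (Spry2) and chr2:117121071-117182279 (Spred1).

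Dusp1: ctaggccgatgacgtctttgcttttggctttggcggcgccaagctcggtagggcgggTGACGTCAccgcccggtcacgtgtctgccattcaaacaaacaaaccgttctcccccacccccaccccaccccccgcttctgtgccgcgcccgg
Dusp5: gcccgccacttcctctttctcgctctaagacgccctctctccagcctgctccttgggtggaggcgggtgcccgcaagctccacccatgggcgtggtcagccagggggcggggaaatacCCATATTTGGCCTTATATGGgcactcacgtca
Dusp8: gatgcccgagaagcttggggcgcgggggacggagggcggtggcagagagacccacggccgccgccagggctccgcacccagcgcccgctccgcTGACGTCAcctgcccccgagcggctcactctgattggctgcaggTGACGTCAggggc

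The capitals in Dusp1 and Dusp8 are the cAMP response element TGACGTCA, the binding sequence of CREB and ATF factors, which was present once in Dusp1 (bases 143 to 136 before the start) and at 2 places in Dusp8 (bases 107 to 100 and 63 to 56). Dusp5 carried 2 adjacent CArG boxes, the binding sequence of serum response factor, at bases 82 to 73 and 72 to 63. In all, 5 motifs were searched on both strands in the 250 bases before the start: the cAMP response element, AP-1 (TGANTCA), the ETS core CCGGAAG, the CArG box and the NF-kB site. None of the 5 was found in Dusp6, Dusp10, Dusp16, Spry2 or Spred1. No promoter of Dusp4 or Spry4 was used. The matches do not overlap each other, and over 31409 RefSeq promoters the shares with a match were 1.51% for the cAMP response element, 6.79% for AP-1, 6.85% for the ETS core, 1.45% for the CArG box and 7.28% for NF-kB.

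**Figure D1:**
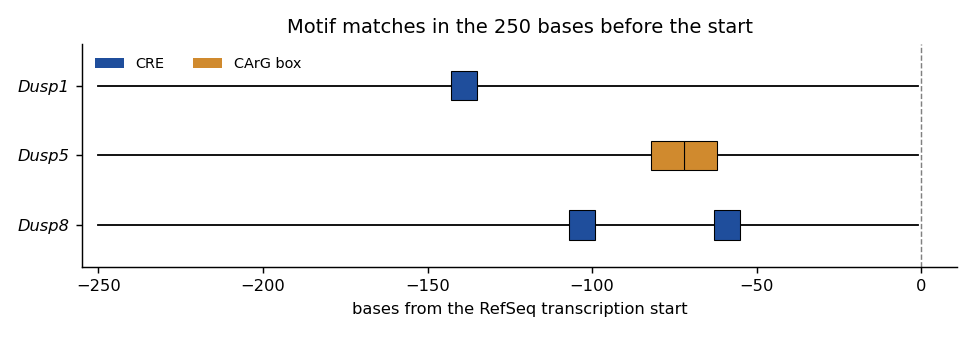
Motif matches in the 250 bases before the RefSeq start of Dusp1, Dusp5 and Dusp8, with the position in bases from the start on the x axis and 1 gene per line; blue boxes are cAMP response elements and orange boxes CArG boxes. Dusp8 has 2 blue boxes, Dusp1 has 1, and the 2 orange boxes of Dusp5 touch each other.

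In WT saline livers, Dusp1 (65.6 ± 6.09 TPM, mean ± SD, n = 3) and Dusp6 (27.7 ± 4.76 TPM) were the most abundant members. Dusp16 (7.30 ± 0.820 TPM), Spred1 (4.58 ± 0.469 TPM), Spry4 (3.37 ± 0.911 TPM) and Dusp10 (1.43 ± 0.1997 TPM) followed, and neighbours in this order did not overlap. Dusp5 (0.420 ± 0.104 TPM), Spry2 (0.267 ± 0.254 TPM), Dusp4 (0.207 ± 0.0577 TPM) and Dusp8 (0.1 ± 0.0265 TPM) were below 1 TPM in every WT saline mouse, with overlap between Dusp5 and Spry2 and between Spry2 and Dusp4. In KO ConA livers the order was Dusp1 (36.1 ± 6.83 TPM, n = 4), Dusp6 (27.8 ± 7.95 TPM), Dusp16 (26.4 ± 4.74 TPM), Dusp10 (9.05 ± 1.44 TPM), Dusp8 (8.02 ± 1.65 TPM), Spred1 (7.83 ± 1.82 TPM), Dusp5 (5.34 ± 1.98 TPM), Dusp4 (2.78 ± 0.987 TPM), Spry4 (2.52 ± 0.459 TPM) and Spry2 (1.89 ± 0.461 TPM). There, all neighbours overlapped except Dusp16 and Dusp10. In bulk liver, fewer cells of a type and less RNA per cell cannot be told apart.

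After ConA, the WT livers divided the members by direction. Of 9 members tested, 7 were called in WT ConA against WT saline, with 4 higher (Dusp4, Dusp5, Dusp8 and Dusp10) and 3 lower (Dusp1, Dusp6 and Spry4). Over all 10768 genes tested, 53.0% were called, 22.0% higher and 31.0% lower, and this is the background for the members. The same 7 members showed no overlap between the groups, 4 above (23.3% of all genes tested) and 3 below (34.7%). The 3 genes that fell were among the more abundant members in WT saline, and the 4 that rose were among the less abundant. The filter fixed part of this split. Dusp4, Dusp5 and Dusp8 were below 1 TPM in every WT saline mouse, passed through WT ConA and could only be called higher.

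Dusp8, whose product acts on JNK and p38, was near 0 without ConA, at 0.12, 0.11 and 0.07 TPM in WT saline, and had 4.79, 6.33, 4.99 and 6.99 TPM in WT ConA. The groups lie far apart, with a ratio of mean TPM of 57.8 and a log2 fold change of 2.61 (SE 0.15, adjusted p 2.04e-06, limma). Dusp10, a further JNK and p38 phosphatase, went from 1.53, 1.56 and 1.20 TPM to 4.84, 5.51, 3.04 and 5.18 TPM, a log2 fold change of 1.20 (SE 0.19, adjusted p 5.91e-04, limma). All ConA mice were above all saline mice for both genes, and WT ConA replicate 3 was the lowest ConA mouse for Dusp10.

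Dusp5, a nuclear ERK phosphatase, rose from 0.36, 0.54 and 0.36 TPM to 1.31, 1.31, 0.99 and 1.55 TPM, a log2 fold change of 0.69 (SE 0.13, adjusted p 0.00211, limma). Dusp4 rose from 0.14, 0.24 and 0.24 TPM to 1.66, 1.04, 0.41 and 1.25 TPM, a log2 fold change of 0.76 (SE 0.20, adjusted p 0.0113, limma). Neither pair of groups overlapped, but both genes stayed at or below 1.66 TPM in every WT mouse. Without WT ConA replicate 1, 2 or 4 these 2 genes no longer reached a TPM of 1 in 3 libraries. In these fits 5 members remained called of 7 tested, beside 48.8%, 50.1% and 50.5% of all genes tested.

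Dusp1 is the classical stress-inducible phosphatase, and its transcript fell in the WT mice at this time. It had 58.69, 68.01 and 70.15 TPM in WT saline and 23.26, 20.54, 19.65 and 46.72 TPM in WT ConA, a log2 fold change of -1.31 (SE 0.27, adjusted p 0.00307, limma). All 4 ConA mice were below the 3 saline mice, and replicate 4 stood well above the other 3. Dusp6 had 22.63, 28.58 and 32.03 TPM in WT saline and 13.91, 17.58, 6.05 and 18.55 TPM in WT ConA, a log2 fold change of -1.03 (SE 0.33, adjusted p 0.0258, limma). Spry4, a Sprouty gene, had 2.33, 4.01 and 3.78 TPM in WT saline and 1.75, 1.40, 0.67 and 1.33 TPM in WT ConA, a log2 fold change of -0.94 (SE 0.21, adjusted p 0.00481, limma). The groups did not overlap for either gene, and WT ConA replicate 3 was the lowest mouse for both.

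Dusp16 (log2 fold change 0.54, adjusted p 0.127) and Spred1 (0.22, adjusted p 0.517) did not pass the test in WT mice, and Spry2 was too low to be tested, at 0.12 to 0.56 TPM in saline and 0.34 to 0.99 TPM after ConA. With WT saline replicates 2 and 3 averaged, 6 members were called beside 42.1% of all genes tested, and Dusp6 was the one lost (log2 fold change -0.96, adjusted p 0.0823). WT ConA replicate 3 decided Dusp16 and Spred1: without it 9 of the 9 tested members were called beside 65.9% of all genes tested, with log2 fold changes of 0.80 (adjusted p 0.00247) for Dusp16 and 0.49 (adjusted p 0.00766) for Spred1.

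Cell type markers shifted with ConA as well. In WT ConA against WT saline, 7 of 8 neutrophil markers were higher, 4 of 6 hepatocyte markers were lower and 1 higher, 6 of 8 Kupffer cell and macrophage markers were lower and 0 higher, and the Kupffer sum went from between 70.2 and 120.5 TPM to between 8.99 and 36.9 TPM. In KO mice 7 of 8 neutrophil markers were higher after ConA, 4 of 6 hepatocyte and 4 of 8 Kupffer markers were lower, and 1 of each of the latter lists was higher. The neutrophil markers Retnlg, Mmp8 and Mmp9 were below 1 TPM in every saline mouse of both genotypes and could only be called higher. The macrophage marker Adgre1 was below 1 TPM in every WT ConA mouse and could only be called lower in WT mice. Averaging WT saline replicates 2 and 3 gave the same counts for these 3 lists in WT mice. How far these shifts entered the values of the members was not tested.

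In the Ythdf1-/- mice every fitted response to ConA was above 0, as it was for 5819 of all 10988 genes tested. For Dusp4, Dusp5 and Dusp8 this direction was fixed by the filter. They were below 1 TPM in every KO saline mouse and passed through KO ConA. Of 10 members tested, 8 were called in KO ConA against KO saline, all higher: Dusp4, Dusp5, Dusp6, Dusp8, Dusp10, Dusp16, Spry2 and Spred1. Over all 10988 genes tested, 64.6% were called and 33.9% were called higher. The groups did not overlap for 7 of the 8, all but Spry2, with each ConA mouse above each saline mouse, as for 32.8% of all genes tested. The median log2 fold change was 1.26 over the members and 0.07 over all genes tested, where the WT comparison had 0.54 and -0.07.

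Dusp8 was again the strongest responder, from 0.14, 0.07 and 0.12 TPM in KO saline to 6.24, 8.46, 7.30 and 10.08 TPM in KO ConA (log2 fold change 3.01, SE 0.17, adjusted p 1.64e-07, limma). Dusp16, which encodes a JNK-directed phosphatase, had 4.26, 4.35 and 5.54 TPM in KO saline and 24.32, 26.83, 21.67 and 32.77 TPM in KO ConA, a ratio of mean TPM of 5.597 and a log2 fold change of 2.25 (SE 0.17, adjusted p 9.61e-07, limma). Dusp10 rose from 1.34, 1.37 and 1.54 TPM to 7.79, 8.54, 8.75 and 11.11 TPM (log2 fold change 2.05, SE 0.16, adjusted p 1.39e-06, limma). For these 3 genes each KO ConA mouse was far above each KO saline mouse.

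Dusp5 went from 0.50, 0.09 and 0.43 TPM in KO saline to 3.80, 3.45, 7.01 and 7.09 TPM in KO ConA, a ratio of mean TPM of 15.7 and a log2 fold change of 2.20 (SE 0.25, adjusted p 1.83e-05, limma). Dusp4 went from 0.14, 0.17 and 0.22 TPM to 2.01, 1.85, 3.61 and 3.66 TPM, with a ratio of 15.8 and a log2 fold change of 1.65 (SE 0.20, adjusted p 3.74e-05, limma). In both genes KO ConA replicates 3 and 4 lay at about the same level and above replicates 1 and 2. Dusp6 had 14.72, 17.58 and 15.18 TPM in KO saline and 24.71, 21.59, 25.29 and 39.42 TPM in KO ConA, a log2 fold change of 0.74 (SE 0.19, adjusted p 0.00561, limma).

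Among the Sprouty and Spred genes, Spred1 rose from 3.88, 3.11 and 4.44 TPM to 10.11, 8.37, 5.94 and 6.89 TPM (log2 fold change 0.86, SE 0.19, adjusted p 0.00243, limma) with no overlap of the groups. Spry2 moved from 1.32, 0.97 and 1.0 TPM to 2.13, 1.78, 2.36 and 1.3 TPM (0.45, SE 0.17, adjusted p 0.0348, limma). The lowest Spry2 value after ConA was below the highest saline value, and the call was lost in 7 of 12 alternatives, among them the fits without KO saline replicate 2 or 3 or without KO ConA replicate 1, 2 or 3. Dusp1, at 28.20, 31.00 and 19.49 TPM in KO saline and 32.17, 30.92, 45.97 and 35.49 TPM in KO ConA, was just outside the threshold (0.46, SE 0.19, adjusted p 0.05004, limma), and Spry4, at 1.64, 1.27 and 2.43 TPM and 3.08, 2.25, 2.68 and 2.05 TPM, did not pass either (0.35, SE 0.18, adjusted p 0.116, limma). Dusp1 was called without KO saline replicate 2 (0.59, adjusted p 0.0333) or KO ConA replicate 2 (0.52, adjusted p 0.0428), and Spry4 without KO saline replicate 3 (0.51, adjusted p 0.0462, all by limma).

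**Figure D2:**
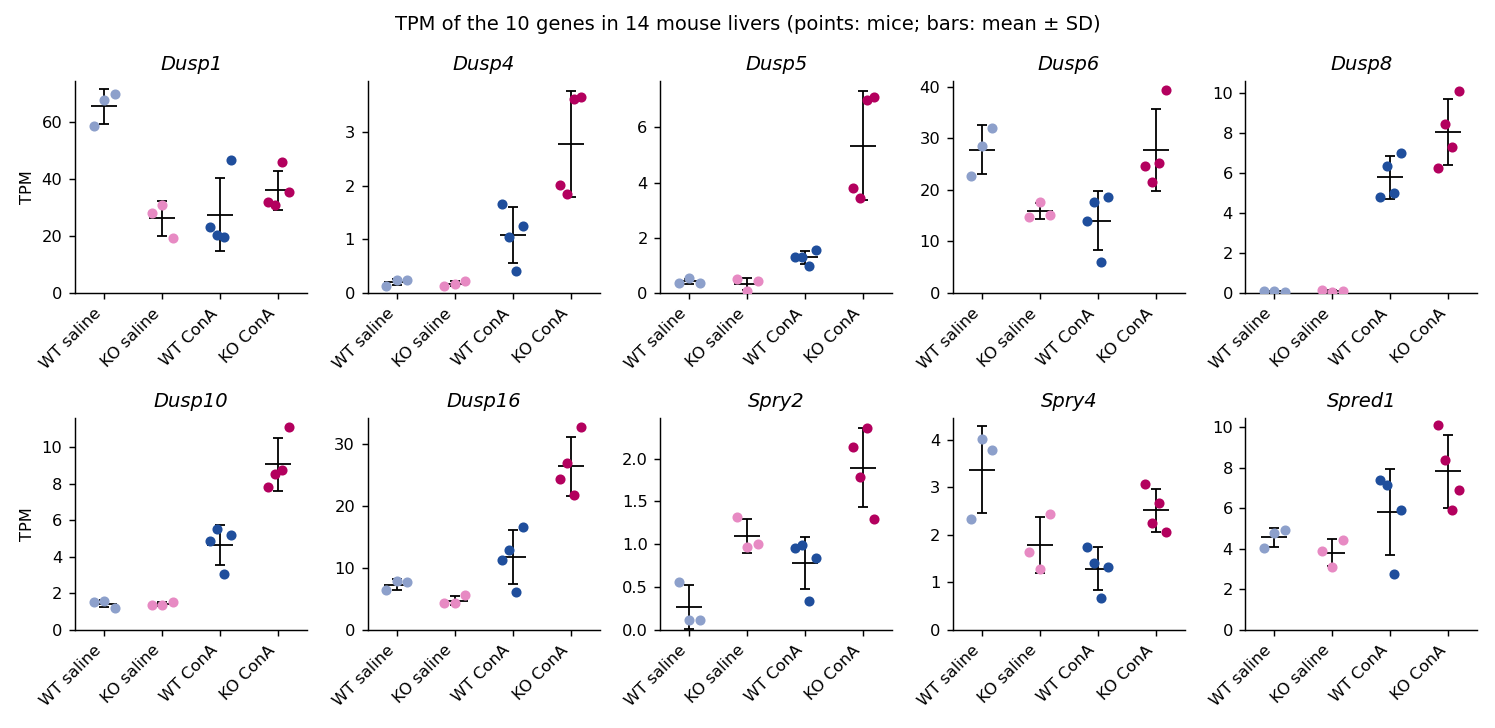
TPM of the 10 genes on the y axis (a separate linear scale from 0 for each gene) in the 4 groups on the x axis; points are mice, the horizontal line is the mean and the bars are ± SD. Dusp8 is near 0 in both saline groups and above 4 TPM in every ConA mouse, whereas Dusp1 is highest in WT saline, between 58.69 and 70.15 TPM.

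**Figure D3:**
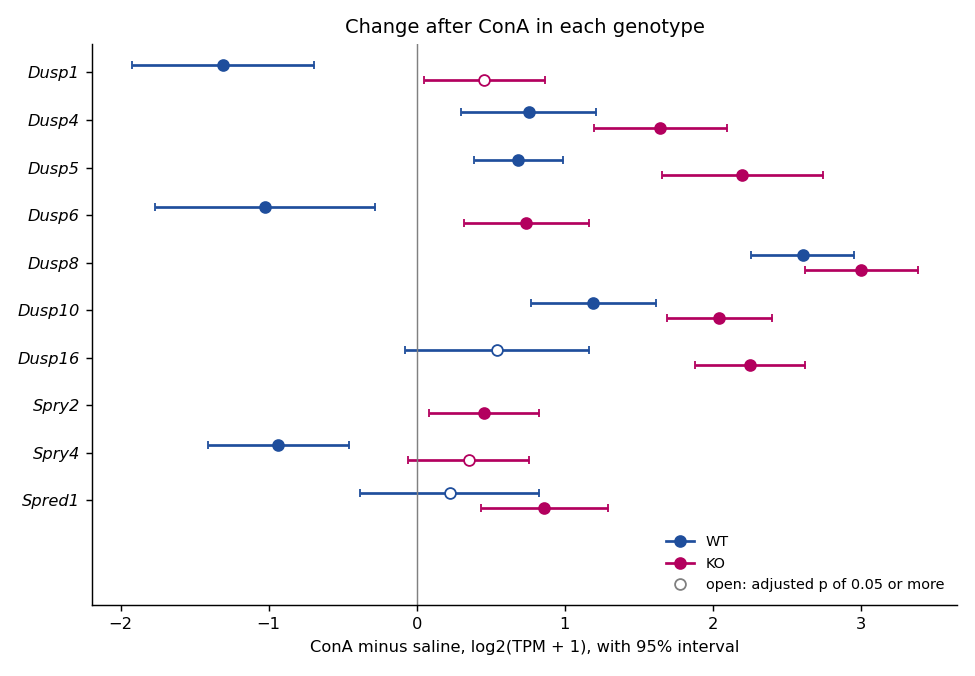
Log2 fold change after ConA on the log2(TPM + 1) scale with its 95% interval (x axis) for each gene (y axis), in WT mice (blue, n = 4 against 3) and KO mice (red, n = 4 against 3); filled points have an adjusted p under 0.05 and untested genes have no point. Dusp1, Dusp6 and Spry4 lie left of 0 in WT mice and right of 0 in KO mice.

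Without ConA, several members were lower in the Ythdf1-/- livers. Of the 6 members tested in KO saline against WT saline, 3 were called and all were lower in KO: Dusp1, Dusp6 and Dusp16. Over all 10459 genes tested, 19.2% were called and 12.9% were called lower (1350 lower and 659 higher, which became 635 lower and 1024 higher with rescaled libraries, where the same 3 members were called). Dusp4, Dusp5, Dusp8 and Spry2 were too low to be tested.

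Dusp1 lay between 58.69 and 70.15 TPM in WT saline and between 19.49 and 31.00 TPM in KO saline, a log2 fold change of -1.31 (SE 0.17, adjusted p 0.0105, limma). Its levels in KO saline overlapped with those of WT mice given ConA. Dusp6, between 22.63 and 32.03 TPM in WT mice and between 14.72 and 17.58 TPM in KO mice, had a log2 fold change of -0.76 (SE 0.14, adjusted p 0.0192, limma), and Dusp16, at 6.36 to 7.84 TPM and 4.26 to 5.54 TPM, one of -0.54 (SE 0.12, adjusted p 0.0284, limma). In all 3 genes each KO mouse was below each WT mouse, as for 29.2% of all genes tested. Spry4 (log2 fold change -0.65, adjusted p 0.0608), Spred1 (-0.22, adjusted p 0.234) and Dusp10 (-0.01, adjusted p 0.977) did not pass the test, and the sign for Dusp10 turned when the libraries were rescaled (0.07). Spry2 was not tested, with KO saline mice between 0.97 and 1.32 TPM and WT saline mice between 0.12 and 0.56 TPM.

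These calls depended on counting WT saline replicates 2 and 3 as separate mice. With their average as 1 mouse, limma called 0 of 7 members tested and 0.459% of all genes tested. Dusp1 then had a log2 fold change of -1.27 (adjusted p 0.0678, limma), Dusp6 one of -0.70 (0.0880) and Dusp16 one of -0.50 (0.118). An unadjusted p under 0.05 was found for 4 members and for 2789 of 10675 genes in all. Without WT saline replicate 2 the count was also 0 (0.477% of all genes), as it was without replicate 3 (0.422%). It was 1 (Dusp1) without KO saline replicate 1 (2.70%), 2 without KO saline replicate 2 (640 of 10663 genes) and 4 without KO saline replicate 3 (25.9%), all lower in KO. Without WT saline replicate 1 it was 5 (2234 of 10634 genes), of which 4 were lower and Spry2 was higher in KO (0.90, adjusted p 0.0127, limma). In that fit Spry2 was below 1 TPM in every WT saline mouse, passed the filter through KO saline and could only be called higher. Spry2 was also called higher when no filter was used (0.74, adjusted p 0.0450, limma).

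Markers of liver cell types moved with genotype in the same saline livers. The summed TPM of 8 Kupffer cell and macrophage markers was 70.2 to 120.5 in WT saline and 30.8 to 66.4 in KO saline, with 0 of 8 called. The sum of 6 stellate cell markers was 15.8 to 62.6 against 57.7 to 100.5 (2 of 6 called, higher), that of 7 sinusoidal endothelial markers 15.2 to 25.4 against 26.4 to 45.4 (3 of 6 tested called, higher) and that of 5 cholangiocyte markers 46.5 to 57.0 against 83.7 to 89.4 (2 of 4 tested called, higher). Most of the cholangiocyte sum came from Spp1 (mean 48.7 TPM in WT saline and 73.8 TPM in KO saline). The 6 hepatocyte markers overlapped, at 103369 to 124196 against 98071 to 118846, with 0 of 6 called. After averaging WT saline replicates 2 and 3, limma called 0 markers of these 5 lists. The part of these shifts in the differences of Dusp1, Dusp6, Dusp16 and Spry2 was not tested.

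In the ConA livers the fitted levels lay the other way. All 10 members were above WT in KO ConA against WT ConA, as were 6048 of all 10519 genes tested. For 7 members (Dusp4, Dusp5, Dusp6, Dusp10, Dusp16, Spry2 and Spry4) each KO mouse was higher than each WT mouse. This pattern was found for 6.37% of all genes tested. Spry2 was below 1 TPM in every WT ConA mouse, so it passed the filter through KO ConA and could only lie above. Of the 10 members tested, 1 was called, Dusp5, against a background of 0.428% of genes called and 0.342% called higher. Unadjusted p was under 0.05 for 7 members and for 1753 genes in all.

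Dusp5 had 1.31, 1.31, 0.99 and 1.55 TPM in WT ConA and 3.80, 3.45, 7.01 and 7.09 TPM in KO ConA, a ratio of mean TPM of 4.14 and a log2 fold change of 1.42 (SE 0.22, adjusted p 0.0369, limma). The lowest KO mouse lay well above the highest WT mouse. The call held without KO ConA replicate 2 and was lost without any other single mouse, in 7 of 8 fits, where the log2 fold change was 1.28 to 1.53 and the adjusted p up to 0.106. Of the 50-base stretches of the Dusp5 transcript, 79.5% were found in no other gene, and the rest were shared with AC137853.2, so that reads of that gene could have been counted for Dusp5.

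The next members were JNK and p38 phosphatases. Dusp16 had 11.27, 12.92, 6.06 and 16.55 TPM in WT ConA and 24.32, 26.83, 21.67 and 32.77 TPM in KO ConA (log2 fold change 1.17, SE 0.26, adjusted p 0.0669, limma). Dusp10 had 4.84, 5.51, 3.04 and 5.18 TPM and 7.79, 8.54, 8.75 and 11.11 TPM (0.85, SE 0.19, adjusted p 0.0674, limma). Both missed the threshold although the groups did not overlap, and WT ConA replicate 3 was the lowest mouse for both. Dusp8 overlapped between the genotypes, at 4.79 to 6.99 TPM and 6.24 to 10.08 TPM (0.41, 95% interval -0.0012 to 0.82, adjusted p 0.302).

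Of the ERK-directed phosphatases, Dusp6 (log2 fold change 1.0037, SE 0.31, adjusted p 0.148, limma) and Dusp4 (0.86, SE 0.24, adjusted p 0.116, limma) were not called. Spry2, at 0.96, 0.99, 0.34 and 0.84 TPM in WT ConA and 2.13, 1.78, 2.36 and 1.3 TPM in KO ConA, had a log2 fold change of 0.70 (adjusted p 0.0984), and Spry4 one of 0.63 (adjusted p 0.127). Dusp1 (0.45, 95% interval -0.11 to 1.02, adjusted p 0.414) and Spred1 (0.42, 95% interval -0.16 to 1.0033, adjusted p 0.473) overlapped between the genotypes. When all 14 libraries shared one estimate of the spread, 6 members were called (Dusp4, Dusp5, Dusp6, Dusp10, Dusp16 and Spry2) beside 6.08% of all genes.

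The sum of 8 neutrophil markers lay between 320 and 562 TPM in WT ConA and between 415 and 957 TPM in KO ConA, with 0 of 8 called, and between 5.42 and 11.2 TPM in the saline livers of both genotypes. That of the hepatocyte markers lay between 54434 and 77361 TPM in WT ConA and between 48676 and 61370 TPM in KO ConA. Stellate (21.4 to 61.7 against 50.1 to 98.5 TPM) and T cell markers (1.97 to 4.15 against 3.23 to 6.08 TPM) overlapped between the genotypes as well. The sum of cholangiocyte markers did not (18.7 to 32.1 against 36.8 to 56.4 TPM, 0 of 5 called). Most of it came from Spp1 (mean 17.5 TPM in WT ConA and 34.3 TPM in KO ConA). Spp1 and Epcam did not overlap between the genotypes, whereas Krt7, Krt19 and Sox9 did. The part of these cells in the values of the members was not tested.

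**Figure D4:**
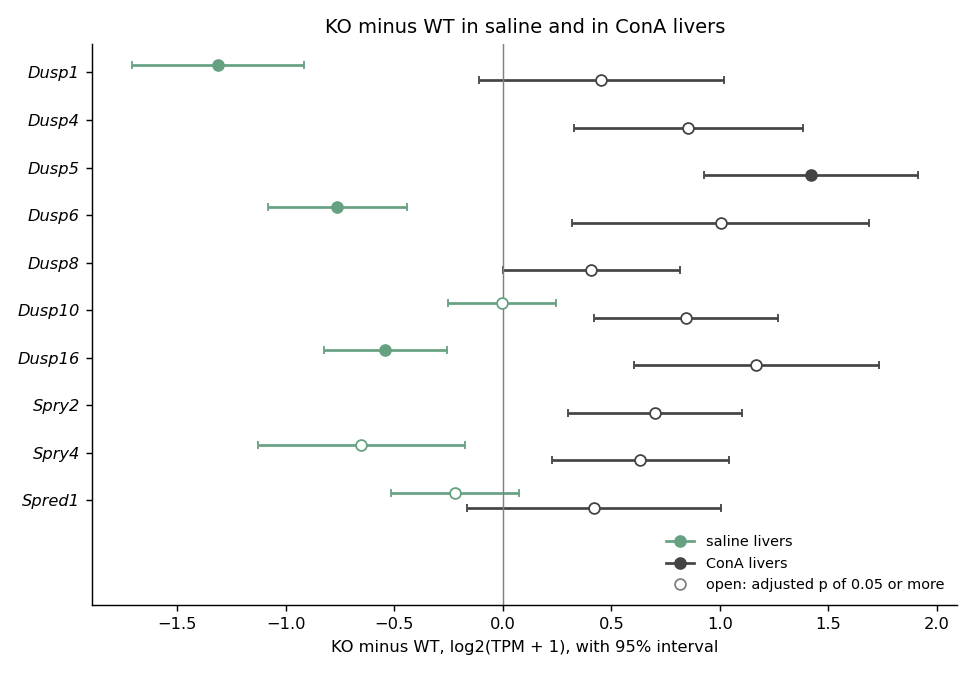
Log2 fold change of KO against WT on the log2(TPM + 1) scale with its 95% interval (x axis) for each gene (y axis), in saline livers (green, n = 3 against 3) and ConA livers (grey, n = 4 against 4); filled points have an adjusted p under 0.05 and untested genes have no point. The saline points lie at or left of 0 and the ConA points right of 0, of which Dusp5 at 1.42 is filled.

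Whether the ConA response itself differed between the genotypes was tested as the interaction of genotype and ConA. Of 10 members tested, 5 were called (Dusp1, Dusp5, Dusp6, Dusp16 and Spry4), each with a higher response in KO, beside 4.78% of the 11327 genes tested called and 2.64% called higher. The median difference of responses was 1.09 over the members and 0.14 over all genes tested. The test uses the same libraries as the comparisons above and is not independent of them.

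Dusp1, which fell by 1.31 on the log2 scale in WT mice and had a fitted change of 0.46 in KO mice, differed in response by 1.77 (SE 0.36, adjusted p 0.0258, limma). Dusp6 also changed in opposite directions, by -1.03 in WT and 0.74 in KO, a difference of 1.77 (SE 0.41, adjusted p 0.0334, limma). Spry4, at -0.94 in WT and 0.35 in KO, differed by 1.29 (SE 0.29, adjusted p 0.0307, limma). In these 3 genes the KO saline group had the lower mean in saline and the KO ConA group the higher mean after ConA, so that both ends of the comparison entered the difference.

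For Dusp16 the response was 0.54 in WT and 2.25 in KO, a difference of 1.71 (SE 0.34, adjusted p 0.0250, limma). For Dusp5 it was 0.69 and 2.20, a difference of 1.51 (SE 0.30, adjusted p 0.0229, limma), and here the saline groups overlapped. Dusp10 (0.85, adjusted p 0.0530), Dusp4 (0.89, adjusted p 0.0910), Spred1 (0.64, adjusted p 0.257) and Dusp8 (0.40, adjusted p 0.277) did not pass the test. Spry2 had a difference of -0.04 (95% interval -0.58 to 0.50, adjusted p 0.933), whose sign turned when WT saline replicates 2 and 3 were averaged (0.04).

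With that average as 1 mouse, limma called 0 of the 10 members and 28 of 11535 genes. An unadjusted p under 0.05 was found for 7 members and for 2152 genes in all. The differences stayed near their first values, at 1.73 for Dusp1 (adjusted p 0.0885), 1.67 for Dusp16 (0.0885), 1.5003 for Dusp5 (0.0828), 1.70 for Dusp6 (0.104) and 1.19 for Spry4 (0.104). The count was also 0 without WT saline replicate 2 (0.234% of all genes), WT saline replicate 3 (0.191%) or KO saline replicate 1 (0.287%). It was 1 without KO saline replicate 2 (Dusp1, beside 0.547% of all genes) or KO ConA replicate 4 (Dusp5, beside 0.725%).

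**Figure D5:**
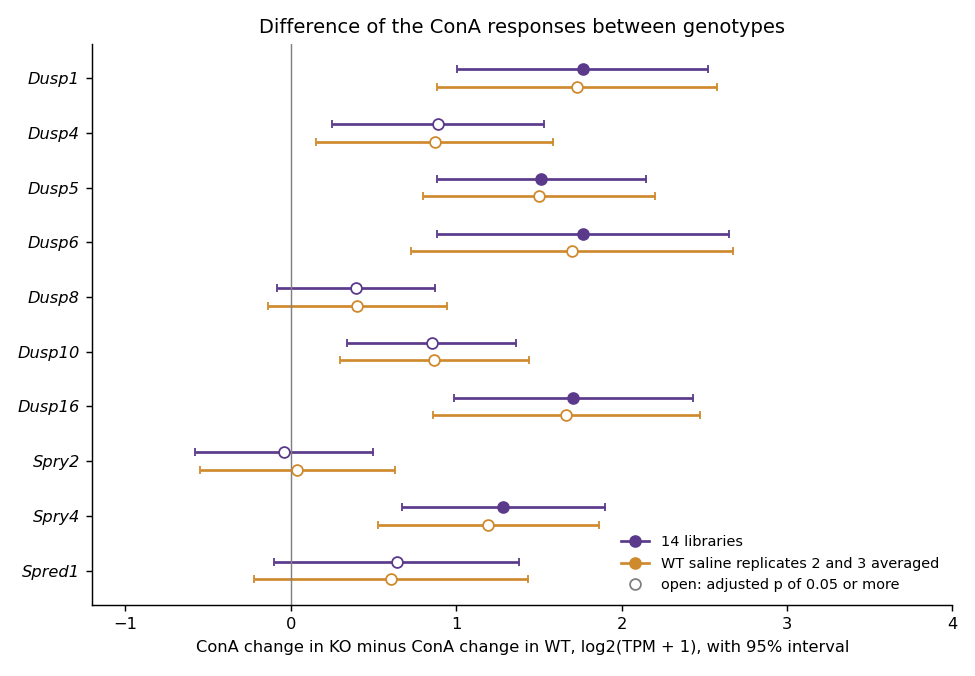
Difference between the ConA response of KO and WT mice on the log2(TPM + 1) scale with its 95% interval (x axis) for each gene (y axis), with all 14 libraries (purple) or with WT saline replicates 2 and 3 averaged (orange); filled points have an adjusted p under 0.05. The 5 filled purple points (Dusp1, Dusp5, Dusp6, Dusp16 and Spry4, from 1.29 to 1.77) have open orange counterparts at 1.19 to 1.73.

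Within the groups, members tended to be high or low in the same mice. Over the deviations of log2(TPM + 1) from the group means in 14 libraries, 41 of 45 pairs of members had a correlation above 0, with a median of 0.41. The highest were Dusp6 with Dusp16 (0.88), Dusp6 with Dusp10 (0.83), Dusp10 with Dusp16 (0.83), Dusp4 with Dusp5 (0.77) and Spry4 with Spred1 (0.76). The points share their libraries, of which the replicates 3 of both ConA groups were low over most genes. After rescaling each library the median was 0.39, the lowest value was -0.44 and 40 of 45 pairs were above 0. Whether other genes correlate as much was not tested.

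Around these regulators, the genes of the pathway itself moved in both directions after ConA. In the ERK cascade from adaptors to kinases, 4 of 20 genes tested were higher and 6 lower in WT ConA against WT saline (median -0.16). In KO ConA against KO saline 8 were higher and 6 lower (median 0.41). Over all genes tested, 22.0% were higher and 31.0% lower in WT mice, and the WT counts of the list lay near these shares. In KO mice 33.9% of all genes were higher and 3376 of 10988 lower. Mapk3, which encodes ERK1, fell in WT (-1.07, adjusted p 1.54e-04, limma) and in KO mice (-1.06, adjusted p 8.39e-05), as did the adaptor gene Gab1 (-0.97, adjusted p 0.00157, and -0.85, adjusted p 0.00357). Nras rose in both (0.94, adjusted p 0.00337, and 1.58, adjusted p 7.72e-06), and so did the ERK kinase gene Map2k1 (0.79, adjusted p 0.0117, and 1.23, adjusted p 7.50e-06) and the ERK-activated kinase gene Rps6ka3 (0.54, adjusted p 0.0472, and 1.24, adjusted p 3.83e-05). When WT saline replicates 2 and 3 were averaged, 3 genes of the list were higher and 4 lower in WT mice, and Rps6ka3 was no longer called.

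In the p38 and JNK cascades, 4 of 16 genes were higher and 5 lower in WT mice after ConA, and 6 higher and 4 lower in KO mice. These counts lay near the shares over all genes given for the ERK cascade. Mapk13, called higher in both genotypes, was below 1 TPM in every saline mouse and could only be called higher. The p38 kinase gene Map2k6 fell in WT (-2.81, adjusted p 3.52e-06, limma) and in KO mice (-2.64, adjusted p 2.88e-07), and Map3k8, an upstream kinase of inflammatory MAPK signaling, rose in WT (1.63, adjusted p 1.29e-04) and in KO mice (2.11, adjusted p 1.45e-06). Map3k1, a JNK pathway kinase gene, rose in WT (2.13, adjusted p 1.09e-04) and in KO mice (1.998, adjusted p 5.53e-06), as did Mapkapk2, the p38-activated kinase gene (1.17, adjusted p 1.60e-04, and 2.05, adjusted p 2.24e-07). With the 2 WT saline libraries averaged, 4 genes were higher and 3 lower in WT mice. Mapkapk2 was the gene of this list called in the interaction (0.89, adjusted p 0.0280).

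Of the growth factors and receptors, 2 of 11 tested were higher and 5 lower in WT mice after ConA, and 5 of 12 higher and 4 lower in KO mice. Over all genes tested, 22.0% were higher and 31.0% lower in WT mice and 33.9% higher in KO mice. Hbegf in both genotypes, and Areg and Ereg in KO mice, were below 1 TPM in every saline mouse. They passed the filter through the ConA mice and could only be called higher. The hepatocyte growth factor receptor gene Met fell in WT (-1.73, adjusted p 9.87e-05, limma) and in KO mice (-1.05, adjusted p 4.26e-04), and so did Fgfr3 (-0.94, adjusted p 2.86e-04, and -1.51, adjusted p 5.32e-05), while Egfr rose in both (1.42, adjusted p 0.00169, and 1.78, adjusted p 7.21e-04). The EGF receptor ligand gene Hbegf rose in WT (0.42, adjusted p 0.0487) and in KO mice (1.97, adjusted p 4.14e-05). A further ligand gene, Areg, rose in KO mice (1.36, adjusted p 4.21e-05) and was too low to be tested in WT mice. With the 2 WT saline libraries averaged, 1 gene was higher and 3 lower in WT mice, and Hbegf was no longer called. Hbegf was called in the interaction (1.55, adjusted p 0.0253), with 1.69, 1.26, 1.12 and 0.84 TPM in WT ConA and 4.36, 3.0, 7.51 and 3.08 TPM in KO ConA.

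The transcription factor genes that ERK signaling is known to induce were higher after ConA in both genotypes. The counts were 5 of 6 tested in WT (median 1.56) and 9 of 9 in KO (median 2.55), beside 22.0% and 33.9% of all genes. In KO mice Fos, Fosl1, Egr2 and Etv5 were below 1 TPM in every saline mouse, so they could only be called higher. With the 2 WT saline libraries averaged, 5 of 7 were higher in WT. Among these was Egr2, which was below 1 TPM in every WT saline mouse and could only be called higher. Junb (3.04 in WT, adjusted p 5.85e-07, and 4.20 in KO, adjusted p 7.56e-08, limma), Jun (2.37, adjusted p 4.08e-06, and 3.42, adjusted p 9.47e-08) and Fosl2 (1.88, adjusted p 1.10e-05, and 2.55, adjusted p 2.53e-07) had the smallest p in each. In KO saline against WT saline, 4 of 6 were lower, beside 12.9% of all genes tested. Among them were Egr1 (-2.45, adjusted p 3.44e-04), Jun (-0.58, adjusted p 0.0162) and Fos (-0.76, adjusted p 0.0236, limma). Fos was below 1 TPM in every KO saline mouse, passed the filter through WT saline and could only be called lower. In the interaction, 6 of 9 were called higher, beside 2.64% of all genes tested. They were led by Egr1 (4.34, adjusted p 0.0103), Fos (2.85, adjusted p 0.0279) and Jun (1.04, adjusted p 0.0349).

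Egr1 had 25.13, 16.55 and 18.19 TPM in WT saline and 2.89, 2.71 and 2.76 TPM in KO saline. After ConA it had 19.85, 18.28, 11.54 and 20.36 TPM in WT mice and 34.32, 26.63, 116.92 and 174.92 TPM in KO mice. The mean levels of the genotypes were in opposite order in saline and ConA livers, as for Dusp1, Dusp6, Dusp16 and Spry4, with KO ConA replicates 3 and 4 highest. With WT saline replicates 2 and 3 averaged, Egr1 was the only gene of this list called in KO saline against WT saline and in the interaction. In KO ConA against WT ConA, 0 of 8 were called by limma, beside 0.428% of all genes tested. An unadjusted p under 0.05 was found for 6 of them and for 1753 of 10519 genes in all.

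In KO saline against WT saline, 3 of 20 genes of the ERK cascade were lower and 0 higher, among them Araf (-0.37, adjusted p 0.0390, limma) and the Ras inhibitor gene Rasa1 (-0.37, adjusted p 0.0477). Of the p38 and JNK cascades 2 of 14 were lower, Map3k5 (-0.59, adjusted p 0.0155) and the JNK1 gene Mapk8 (-0.38, adjusted p 0.0471), and of the growth factors and receptors 2 of 10, Met (-0.71, adjusted p 0.00697) and Erbb3 (-0.55, adjusted p 0.0342). These counts stood beside 12.9% of all genes tested called lower. With WT saline replicates 2 and 3 averaged, 0 genes of these 3 lists were called. The count was likewise 0, by limma, for KO ConA against WT ConA.

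Of the 7 relatives of the members in the same families, few were called. Dusp2, which encodes a nuclear phosphatase of immune cells, rose after ConA in WT (log2 fold change 0.78, adjusted p 0.0124, limma) and KO mice (0.73, adjusted p 0.00137). It was below 1 TPM in every saline mouse, passed the filter through the ConA mice and could only be called higher. Its levels after ConA overlapped, between 0.670 and 2.26 TPM in WT mice and between 0.990 and 1.55 TPM in KO mice. Spry1 was higher in KO saline than in WT saline (0.79, adjusted p 0.0354) and fell after ConA in KO mice (-0.86, adjusted p 0.00185). Dusp7 and Spred2 passed none of the 5 tests, of which KO ConA against WT ConA gave a log2 fold change of 0.62 for Spred2 (adjusted p 0.107). Dusp9, Spry3 and Spred3 stayed at or below 0.2 TPM in every library and were not tested. With WT saline replicates 2 and 3 averaged, Spry1 was no longer called in saline livers, nor were Hbegf and Mapkapk2 in the interaction, and Dusp2 was still called in WT ConA against WT saline.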

How the data were processed

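The authors prepared libraries from mouse liver total RNA, sequenced them single-end (50 bases, BGISEQ-500) and deposited 1 table of TPM per mouse. The study's methods name STAR and HTSeq, whereas the submitters' processing notes name Bowtie2, RSEM 1.3.1 and build GRCm38.p6, and which of them made the TPM values was not settled. TPM hold no read number, so no counting error could be given. Groups came from the sample labels, which state that the samples of a group are biological replicates. The two-sided tests of limma 3.58.1 in R 4.3.3 (lmFit, then eBayes with trend) were run on log2(TPM + 1) with the libraries of the groups compared. Genes entered where the number of libraries with a TPM of 1 or more was not below the size of the smaller group. P was adjusted by Benjamini-Hochberg over all genes tested, and 0.05 was the threshold. The 10 members and the other lists were chosen with earlier results of these data known. All members are named and, of each pathway list and comparison, up to 3 called genes with the smallest p. Markers are given as sums. Other settings tried were no filter or one at TPM of 5, a pseudocount of 0.1, libraries rescaled by their median log2 ratio to the mean log2 profile, 1 fit of all 14 libraries, a replicate block, the average of WT saline replicates 2 and 3, and each library left out. Leaving out replicate 3 of both ConA groups was added after seeing the data. The fits were tested on simulated data. Promoters and positions came from RefSeq (GRCm38.p6), matched by gene identifier for 8 of 10 members, and 50-base stretches from GENCODE vM21 transcripts. Python 3.11.15, pandas 2.3.3 and matplotlib 3.10.9 served for motifs and figures. The values of 1 listed gene are not reported here, although it is included in the counts of its list.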

Additional observations from a re-analysis of the deposited data

Results flagged for a closer look

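Dusp1 in WT ConA replicate 4 (46.72 TPM) stood apart from the other 3 mice of its group, which had 19.65 to 23.26 TPM. The gap was 0.867 of the whole range of the group, above the 95% critical value of Dixon's test for 4 samples. It was the only such value among the 20 sets of 4 mice checked (10 genes in 2 ConA groups), and chance gives about 1 in 20. Without this mouse the log2 fold change of Dusp1 in WT ConA against WT saline was -1.59 (adjusted p 5.32e-05, limma) and in KO ConA against WT ConA 0.73 (adjusted p 0.102).

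The responses to ConA differed between the genotypes by a tested interaction for 5 genes. The difference was 1.77 for Dusp1 and 1.77 for Dusp6, which fell in WT mice, 1.71 for Dusp16, 1.51 for Dusp5 and 1.29 for Spry4, each on the log2(TPM + 1) scale and each higher in KO. With the average of WT saline replicates 2 and 3 as 1 mouse 0 of the 5 were called by limma, beside 0.243% of all genes. Over the alternatives the adjusted p of limma reached 0.0930 for Dusp1, 0.109 for Dusp6, 0.0930 for Dusp16, 0.0850 for Dusp5 and 0.104 for Spry4. Over the same alternatives no difference of these 5 genes fell below 1.117.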

How the results depend on the processing

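Under the alternatives that left out no single library, 254 of 284 tests of a member kept their direction and their side of the threshold, 19 lost and 9 gained a call and 2 changed sign. Of 383 tests with 1 library left out, 317 stayed, 46 lost and 10 gained a call and 10 changed sign. Fewer genes were tested with a filter at TPM of 5. It gave 2 of 4 members tested called in WT ConA against WT saline (57.6% of all genes) and 5 of 6 in KO ConA against KO saline (69.6%). It gave 0 of 6 in KO ConA against WT ConA (0.525%) and 3 of 6 in the interaction (6.99%). In KO ConA against WT ConA the count was also 0 with no filter (0.0175% of all genes), with rescaled libraries (0.277%) and with both ConA replicates 3 left out (0.301%). It was 6 with all 14 libraries in the fit (6.08%), which gave 1 in KO saline against WT saline (3.17%). Averaging WT saline replicates 2 and 3 gave 0 in KO saline against WT saline (0.459% of all genes) and 0 in the interaction (0.243%). With 1 library left out the counts were 5 to 9 in WT ConA against WT saline (41.8% to 65.9% of all genes) and 7 to 8 in KO ConA against KO saline (56.3% to 71.8%). They were 0 to 5 in KO saline against WT saline (0.422% to 25.9%) and 0 to 1 in KO ConA against WT ConA (0.0468% to 0.489%). In the interaction they were 0 to 6 (0.191% to 6.81%). Beyond these constructions the cause was not tested. Deviations of same-numbered libraries from their group means correlated at -0.19 to 0.41, highest between the replicates 3 of the ConA groups. Whether the replicate numbers mark pairs or a shared batch was not settled by these values. A replicate block gave 2 in KO ConA against WT ConA (Dusp5 and Dusp16), beside 1.33% of all genes, where the unblocked fit called 0.428%. It gave 4 in KO saline against WT saline, beside 23.2% of all genes, where the unblocked fit called 19.2%. Elsewhere it gave the counts of the unblocked fits, 7 (47.0% of all genes), 8 (59.6%) and 5 (3.16%). Dusp10 in KO saline against WT saline changed sign with rescaled libraries (0.0651) and ran from -0.0756 to 0.0338 with 1 library left out. The Spry2 interaction changed sign on averaging (0.0399) and ran from -0.1992 to 0.0656. Without read numbers, members below 1 TPM have no counting error, and small differences there cannot be resolved.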
